A study of Rattus norvegicus with 6 samples.

Results

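Small leucine-rich proteoglycans are secreted matrix proteins, and 9 of their genes were examined in rat nucleus pulposus cells (NPCs) treated with tert-butyl hydroperoxide (TBHP) with or without FGF21. The genes were Dcn (decorin), Bgn (biglycan), Aspn (asporin), Fmod (fibromodulin), Lum (lumican), Prelp (proline/arginine-rich end leucine-rich repeat protein), Ogn (osteoglycin), Epyc (epiphycan) and Chad (chondroadherin). They were taken by symbol from the combined table of raw read counts, and all 9 were found among its 20264 rows. The cells were primary NPCs from tail discs of male wild type Sprague-Dawley rats, expanded in serum-containing medium. The TBHP group (n = 3) received the oxidant alone, and the TBHP+FGF21 group (n = 3) received it together with recombinant FGF21, so every library came from TBHP-treated cells and no untreated library was analysed here. For replicates 2 and 3 of the TBHP+FGF21 group, the deposited treatment labels name FGF22 and FGF23, while their titles share the letter of the FGF21 library and the design text names FGF21 alone, which was followed. Libraries are named by their titles, T1, T2 and T3 for TBHP and F1, F2 and F3 for TBHP+FGF21. The doses and exposure times of the sequenced cells, and the animals behind each replicate, are not given in the sources used here, although the replicates are called biological. The p-values measure the spread between these libraries. In bulk RNA, fewer cells of a type and less RNA per cell cannot be told apart.

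These proteins share a core of leucine-rich repeats that binds collagen, and they set the spacing and thickness of collagen fibrils. Decorin and biglycan carry chondroitin or dermatan sulfate chains, fibromodulin and lumican can carry keratan sulfate, and several members also bind growth factors of the TGF-beta family. In the intervertebral disc they are found beside aggrecan, in the annulus fibrosus and in the nucleus pulposus.

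Library totals ran from 18277732 to 22426190 counts, and 3 counts, the upper limit that a count of 0 allows, correspond to between 0.131 and 0.168 CPM (a library's counts scaled to a common total). All levels are CPM after TMM scaling, and p-values are those of edgeR's quasi-likelihood fit for the contrast of the 2 groups, adjusted by Benjamini and Hochberg's method across 11426 genes. F2 and T3 each stood nearer to the other group than to their own. Over all genes tested, the root mean square difference of log2 CPM for F2 was 0.172 from the TBHP mean and 0.309 from the mean of F1 and F3. For T3 it was 0.212 from the TBHP+FGF21 mean and 0.254 from the mean of T1 and T2, whereas T1, T2, F1 and F3 were nearer to their own group (0.205 to 0.267 from their own against 0.270 to 0.337 from the other). Own-group means hold fewer libraries than those of the other group, which by itself tends to make the distance to the own group larger. Results that rest on F2 are also given without it, and without T3 no member had an adjusted p under 0.05 by edgeR (the lowest was 0.291, for Prelp). F2 was singled out because it stood near the TBHP group, so leaving it out widens the difference between the groups over many genes. Without F2, 867 of 11559 genes had an adjusted p under 0.05 by edgeR, beside 1 of 11426 with all libraries. Adjusted p-values without F2 are thus descriptive and are not taken as calls. In the list of nucleus pulposus and notochordal markers, Tbxt, Noto and Shh had 0 counts in all libraries. Foxa2, Krt18, Car12 and Ptn were at most 0.622 CPM in any library, and Col2a1 was between 0.41 and 0.78 CPM. Krt8, Cd24, Car3 and Sox9 were between 0.718 and 11.3 CPM. Acan (2506 to 4355 CPM), which is also in the chondrocyte list, Pax1 (210.7 to 385 CPM) and Foxf1 (39.8 to 62.1 CPM) were present. Cdh2, Cd55, Hif1a and Slc2a1 were at 35.6 CPM or more in every library.

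None of the 6 members that could be tested had an adjusted p under 0.05, a call made for 0.00875% of all genes tested by edgeR. None reached an unadjusted p under 0.05 either, against 8.92% of the genes tested (4.63% higher and 4.29% lower in TBHP+FGF21). None passed the study's double threshold (an unadjusted p under 0.05 and more than 1 log2 unit of change in either direction), against 0.534%. These shares are those of the edgeR fit used here and not of the study's own calls, which were more numerous at that threshold. The filter on low counts kept these 6 of the 9 members, namely Dcn, Bgn, Fmod, Lum, Prelp and Chad, and left out Ogn, Epyc and Aspn. Among the 6, the log2 fold change was above 0 for Bgn, Fmod, Lum and Prelp and below 0 for Dcn and Chad, with a median of 0.14 beside -0.01 for all genes tested. Without F2, Prelp had an adjusted p of 0.0465 by edgeR and was the one member under 0.05, against 7.5% of the genes tested in that fit, 3.78% being higher in TBHP+FGF21. In the same fit 4 members (Bgn, Fmod, Lum and Prelp) had an unadjusted p under 0.05, against 23.6% of the genes.

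**Figure D1:**
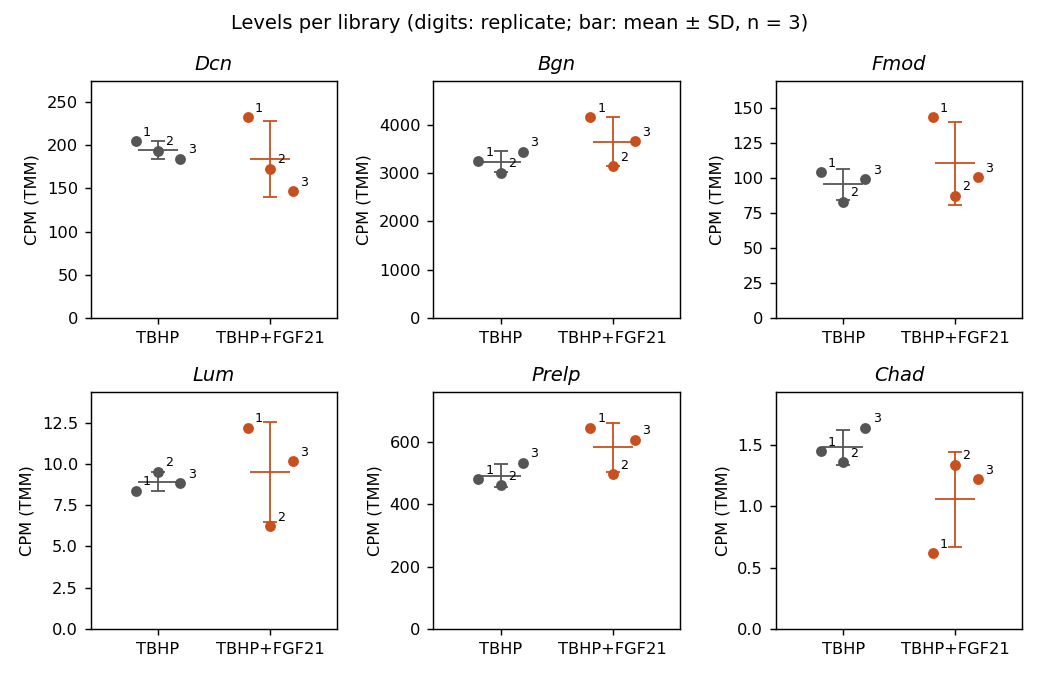
Level of the 6 members that passed the count filter, in CPM after TMM scaling (vertical axes start at 0), for each TBHP library (grey) and TBHP+FGF21 library (orange). Digits are replicate numbers and bars are the mean ± SD (n = 3). F1 is the highest point in every panel except that of Chad, where it is the lowest at 0.616 CPM.

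Biglycan, whose chains are attached near its amino end and whose free form signals through Toll-like receptors, gave most of the members' reads. Bgn (ENSRNOG00000055962) was at 3250, 3008 and 3441 CPM in T1, T2 and T3 and at 4156, 3140 and 3656 CPM in F1, F2 and F3. F1 and F3 lay above all TBHP libraries, and F2 lay within their range. The means were 3233 ± 217 and 3651 ± 508 CPM (SD, n = 3), a log2 fold change of 0.18 (standard error 0.12, 95% interval -0.08 to 0.43, adjusted p = 0.613 by edgeR).

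Decorin, the closest relative of biglycan, binds collagen fibrils and TGF-beta and restrains several receptor tyrosine kinases. Dcn (ENSRNOG00000004554) was at 204.7, 193.6 and 184 CPM with TBHP alone and at 232, 172.7 and 146.8 CPM with FGF21 added. The TBHP+FGF21 group thus held both the highest and the lowest of the 6 values, and the TBHP libraries lay between them. The SD was 10.2 CPM around a mean of 194 CPM with TBHP alone and 43.8 CPM around 184 CPM with FGF21 added. The log2 fold change was -0.08 (standard error 0.14, 95% interval -0.39 to 0.23, adjusted p = 0.853 by edgeR). It was -0.27 without F1 (unadjusted p = 0.0411 by edgeR, a level under which 4.15% of the genes fell in that fit) and 0.07 without F3, so its sign depended on a single library. Within each library, which needs no scaling, Dcn gave 6.30, 6.44 and 5.36 reads per 100 Bgn reads in the TBHP group and 5.59, 5.50 and 4.02 with FGF21 added. The two-sided exact permutation test gave p = 0.3 (adjusted p = 0.7 over 5 such ratios), where 0.1 is the smallest that 3 libraries against 3 allow.

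Asporin, the third member of this class, has a stretch of aspartates in place of a glycosaminoglycan attachment site and binds calcium, collagen and TGF-beta. Aspn had 0 counts in each of the 6 libraries, so its level as counted here was at most 0.131 to 0.168 CPM per library.

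Prelp lacks the usual glycosaminoglycan chains and carries a basic amino end that binds heparan sulfate, by which it can link collagen to the cell surface or to basement membranes. Prelp (ENSRNOG00000003120) was at 481, 463 and 534 CPM with TBHP alone and at 646, 496 and 607 CPM with FGF21 added. F1 and F3 were above every TBHP library, and F2 lay between T1 and T3. Its means were 493 ± 37.1 and 583 ± 77.7 CPM (SD, n = 3), and its log2 fold change of 0.24 (standard error 0.11, 95% interval -0.0046 to 0.49) had the smallest p of the members (unadjusted p = 0.0537, adjusted p = 0.553 by edgeR). It stayed above 0 with each library left out, between 0.18 and 0.36, the highest value being that without F2. Its unadjusted p was under 0.05 with DESeq2's Wald test (7.98% of all genes), with library totals in place of TMM (9.08%), without the filter (9.66%), with at least 1 CPM in 3 libraries (8.89%), in the first strand column (8.01%) and without T3 (15.3%). Prelp gave 14.8, 15.4 and 15.5 reads per 100 Bgn reads in the TBHP group and 15.5, 15.8 and 16.6 with FGF21 added. The lowest TBHP+FGF21 ratio, 15.54, was just above the highest TBHP ratio, 15.52 (two-sided exact permutation test, p = 0.1, the smallest possible, and 0.5 when adjusted over the 5 ratios).

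Fibromodulin binds type I and type II collagen, carries sulfated tyrosines at its amino end and guides collagen cross-linking. Fmod (ENSRNOG00000003183) was at 104.5, 83.4 and 99.5 CPM with TBHP alone and at 143.7, 87.6 and 100.7 CPM with FGF21 added. F1 alone stood clear of the TBHP range, and F2 and F3 lay within it. The log2 fold change was 0.21 (standard error 0.16, 95% interval -0.14 to 0.56, adjusted p = 0.653 by edgeR). It was -0.01 without F1 and 0.36 without F2. Relative to Prelp, its neighbour among protein-coding genes on chromosome 13, Fmod gave 21.7, 18.03 and 18.6 reads per 100 Prelp reads in the TBHP group and 22.3, 17.7 and 16.6 with FGF21 added.

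Lumican competes with fibromodulin for a site on collagen and is best known from the cornea. Lum (ENSRNOG00000004610) had between 130 and 257 counts per library. It was at 8.38, 9.52 and 8.81 CPM with TBHP alone and at 12.2, 6.22 and 10.2 CPM with FGF21 added. As with Dcn, all TBHP values lay inside the range of the TBHP+FGF21 group, whose SD was 3.03 CPM beside 0.577 CPM with TBHP alone. The log2 fold change was 0.10 (standard error 0.21, 95% interval -0.36 to 0.55, adjusted p = 0.882 by edgeR), and -0.11 without F1. Lum and Dcn lie side by side on chromosome 7, and both were highest in F1, but their lowest levels came from different libraries. In F3 Dcn had its lowest level while Lum was above every TBHP library, so the ratio was 6.92 Lum reads per 100 Dcn reads there, beside 4.09 to 4.92 with TBHP alone and 5.24 and 3.603 in F1 and F2.

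**Figure D2:**
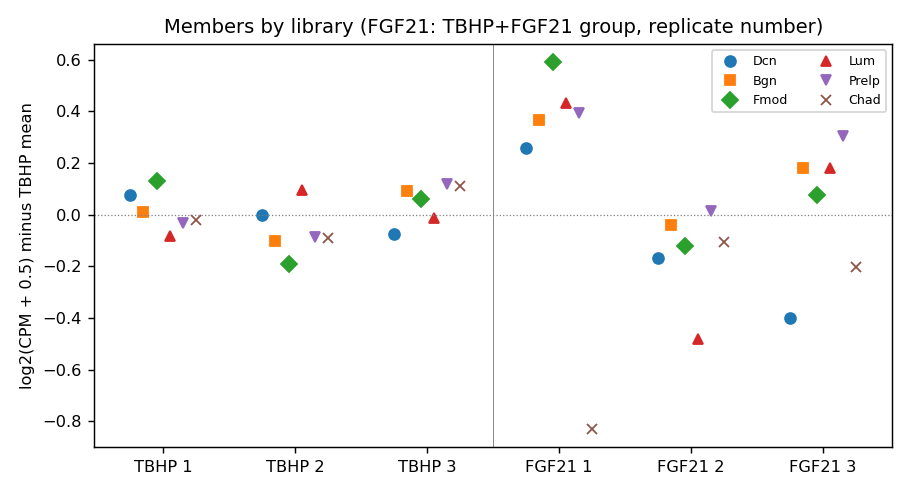
For each library (horizontal axis), log2(CPM + 0.5) of each of the 6 tested members minus its TBHP mean (vertical axis, log2 units). In F1 5 members lie above the TBHP mean together, with Chad far below it, whereas in F3 Prelp, Bgn and Lum lie above and Dcn and Chad below.

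F1 had the highest level of 5 of the 6 tested members, whereas 16.8% of all genes tested were highest in it. The spread was larger in the TBHP+FGF21 group for each of the 6, with a coefficient of variation between 13.3% and 36.7% beside 5.27% to 11.5% in the TBHP group. The share of all genes with a larger spread in that group was not computed. Over all genes tested, F1, F2 and F3 stood 0.217, 0.309 and 0.267 from the rest of their own group, by the root mean square difference above. T1, T2 and T3 stood 0.215, 0.205 and 0.254 from theirs, so the spread is not shown to be particular to the members. The 9 members summed to between 3759 and 4269 CPM with TBHP alone and between 3904 and 5190 CPM with FGF21 added, overlapping ranges with a log2 ratio of means of 0.17. Their reads made up 0.376% to 0.425% of a TBHP library and 0.389% to 0.521% of a TBHP+FGF21 library. The counts were not divided by transcript length, which is not given in the sources used here, so no order of abundance among the members is drawn from them.

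**Figure D3:**
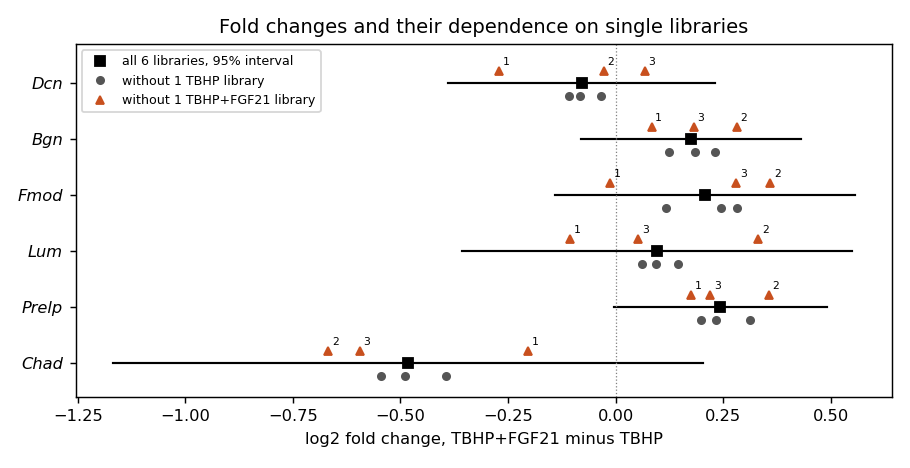
Log2 fold change of TBHP+FGF21 minus TBHP (horizontal axis) for the 6 tested members, as squares with 95% intervals from edgeR. Circles and triangles are the fits without 1 TBHP or 1 TBHP+FGF21 library, with digits naming the TBHP+FGF21 library left out. All 6 intervals include 0, and leaving out F1 brings Fmod to -0.01 and Lum to -0.11.

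Osteoglycin and epiphycan, which share a class with opticin, gave few reads. Osteoglycin, also called mimecan, shapes collagen fibrils in cornea, skin and bone, and epiphycan belongs to growth cartilage. Ogn (ENSRNOG00000029792) had 6, 4 and 6 counts in the TBHP libraries and 1, 2 and 0 counts in the TBHP+FGF21 libraries. The groups did not overlap, beside 9.9% of the genes tested, which do not include Ogn. In the first strand column, with 5, 2 and 5 counts against 0, 1 and 0, they did not overlap either. In the second, with 1, 2 and 1 counts against 1, 1 and 0, they did overlap. The summed counts of 16 and 3 gave a TBHP+FGF21 to TBHP ratio of 0.177, with an exact 95% interval of 0.033 to 0.618 that covers counting error only. Ogn was below the filter and was not tested in the comparison above. When the filter was dropped it had a log2 fold change of -2.35, an unadjusted p of 0.0218 and an adjusted p of 0.422 by edgeR. In that fit 9.66% of the genes had an unadjusted p under 0.05. Epyc had 0, 2 and 1 counts with TBHP alone and 0 in each TBHP+FGF21 library, which is within the 3 counts that a group at 0 allows. Among the neighbouring genes, Kera of the Dcn, Lum, Kera and Epyc row on chromosome 7 also had 0 counts in every library, and Omd, between Ogn and Aspn on chromosome 17, had 1 count in 2 libraries.

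**Figure D4:**
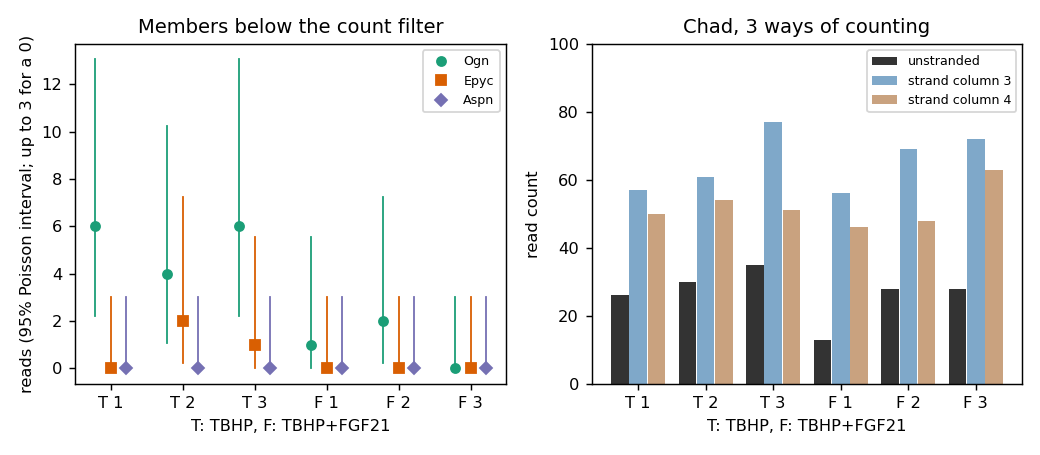
Left, read counts of the members below the filter in each library with exact 95% Poisson intervals, where a count of 0 is drawn up to 3 counts. Ogn has 4 to 6 counts in the TBHP libraries and 0 to 2 in the TBHP+FGF21 libraries. Right, counts of Chad in the unstranded column (bars start at 0) and in the columns for each strand, where F1 has 13 unstranded counts and 56 and 46 counts by strand.

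Chondroadherin has no glycosaminoglycan chains and ties collagen to chondrocytes through integrins. Chad (ENSRNOG00000003304) had 26, 30 and 35 counts with TBHP alone and 13, 28 and 28 counts with FGF21 added, or 1.45, 1.36 and 1.64 CPM against 0.616, 1.34 and 1.22 CPM. The groups did not overlap, as for 9.9% of all genes tested and for 5.0% with the lower values in TBHP+FGF21, but the gap between 28 counts (exact 95% Poisson interval 18.6 to 40.5) and 30 counts (20.2 to 42.8) was within counting error. The log2 fold change was -0.48 (standard error 0.31, 95% interval -1.17 to 0.20, adjusted p = 0.606 by edgeR), and -0.20 without F1. In RefSeq's GRCr8 annotation Chad lies inside the span of Acsf2, a gene of a mitochondrial acyl-CoA synthetase. The 2 strand columns of the per-sample files together held 704 Chad counts, 4.40 times the 160 of the unstranded column. Such an excess above 4 times was found for 0.491% of the identifiers with at least 100 unstranded counts, and the strand columns summed to the unstranded count within 1% for 91.5%. For Dcn, Bgn, Fmod, Lum, Prelp and Ogn the sum and the unstranded count were the same within 1 count.

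By strand, Chad had 57, 61 and 77 counts in the first strand column and 50, 54 and 51 in the second for the TBHP group. The TBHP+FGF21 group had 56, 69 and 72 counts in the first and 46, 48 and 63 in the second. These ranges overlapped, and the log2 fold change was -0.07 in the first and -0.06 in the second (adjusted p = 0.927 and 0.934 by edgeR). Acsf2 itself was at 26.2 ± 2.02 CPM with TBHP alone and 25.8 ± 1.48 CPM with FGF21 added (SD, n = 3). Reads of Chad and Acsf2 cannot be told apart by strand where the genes overlap, as the totals for the strands stood at a ratio of 0.977 to 0.986 in every library.

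RefSeq's GRCr8 promoter table holds 6 of the 9 members (Aspn, Fmod, Lum, Ogn, Epyc and Chad). The 250 bases before the annotated start are shown for the 3 whose window ends at the annotated gene start, so that a well detected member (fibromodulin), one almost without reads (epiphycan) and one inside another gene (chondroadherin) can be set side by side. The sequences run 5′ to 3′ on the plus strand up to the base before the start, and capitals mark matches on either strand to TATAAA (the TATA box), to CCAAT (the CCAAT box), to GGGCGG (a GC box), to TGANTCA (an AP-1 motif) or to CAGAC (a SMAD motif).
Fmod, chr13:48045317-48045566: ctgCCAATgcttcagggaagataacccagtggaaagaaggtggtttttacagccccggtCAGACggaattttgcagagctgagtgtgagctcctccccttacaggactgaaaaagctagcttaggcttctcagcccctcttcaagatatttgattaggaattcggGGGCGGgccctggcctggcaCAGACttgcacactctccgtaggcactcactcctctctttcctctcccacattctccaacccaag
Epyc, chr7:34323082-34323331: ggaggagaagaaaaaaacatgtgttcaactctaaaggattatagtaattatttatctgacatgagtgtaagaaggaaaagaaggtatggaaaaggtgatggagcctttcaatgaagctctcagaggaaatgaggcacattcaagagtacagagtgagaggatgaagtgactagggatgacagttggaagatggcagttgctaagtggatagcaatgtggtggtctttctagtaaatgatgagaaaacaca
Chad, chr10:80008795-80009044: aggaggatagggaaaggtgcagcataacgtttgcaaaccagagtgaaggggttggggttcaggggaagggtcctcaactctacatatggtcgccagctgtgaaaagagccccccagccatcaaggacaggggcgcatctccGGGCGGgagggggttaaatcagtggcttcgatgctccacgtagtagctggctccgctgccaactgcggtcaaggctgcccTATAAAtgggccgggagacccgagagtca
The Fmod window held CCAAT 247 bases before the start, CAGAC 191 and 65 bases before it, and GGGCGG 85 bases before it. The Chad window held TATAAA 29 bases and GGGCGG 109 bases before the start, and the Epyc window held none of the 5 motifs. Among 33469 promoter entries, TATAAA was found in 12.9% of such windows, CCAAT in 34.0%, GGGCGG in 30.5%, TGANTCA in 6.34% and CAGAC in 42.9%. 

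To place the members among other genes, the profiles nearest to each one were sought over the 6 libraries, as the root mean square difference of log2 CPM after centring each gene on its mean. The nearest genes were Prickle2 (0.045) and Asah2 (0.059) for Dcn, Trmt1l (0.017) and Capn15 (0.029) for Bgn, and Snap91 (0.048) and Uvssa (0.069) for Fmod. They were Edil3 (0.092) for Lum, Atp6v0a1 (0.024) and Smo (0.029) for Prelp, and Lmcd1 (0.091) and Cmbl (0.109) for Chad. Bgn and Prelp, which lie on different chromosomes, were each other's nearest member at 0.050, and 0.245% of the non-member genes were nearer to Bgn than Prelp was. Bgn was also the member nearest to Fmod (0.123, with 0.368% of the non-member genes nearer) and to Lum (0.198, with 3.56% nearer). By contrast, the member nearest to Dcn was Fmod at 0.214, with 25.8% of the non-member genes nearer. For Chad the nearest member was Bgn at 0.433, above its median distance of 0.333 to all other genes. Each nearest member is the closest of the other tested members, so these shares are not those of a single member picked beforehand. Counting error also enters the distances, and its part in that of Chad (13 to 35 counts per library) was not tested.

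Other members of the wider family were not called. Of 9 further family genes, 8 had a row and 3 could be tested. Tsku (tsukushi, a secreted inhibitor of BMP signalling) was at 210.1 ± 21.3 CPM with TBHP alone and 183 ± 24.1 CPM with FGF21 added (SD, n = 3), a log2 fold change of -0.20 (adjusted p = 0.583 by edgeR). Podnl1 was at 19.9 ± 1.80 and 17.4 ± 1.36 CPM, also -0.20 (adjusted p = 0.588 by edgeR). Optc, the opticin gene, which precedes Prelp on chromosome 13, had 5 to 18 counts per library. Ecm2, Nyx, Chadl and Omd had at most 9 counts in any library.

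No gene in the lists of enzymes, proteases and partners of these proteins had an adjusted p under 0.05, and counts at an unadjusted p under 0.05 are read against the 8.92% of all genes tested. Among enzymes that build the linker of glycosaminoglycan chains or supply sulfate and sugar nucleotides, 13 of 15 could be tested, 6 with higher and 7 with lower values and a median log2 fold change of -0.04. Pxylp1, the phosphatase that removes a phosphate from the linker xylose, was the one under an unadjusted p of 0.05, at 34.6 ± 2.30 and 41.0 ± 5.05 CPM (log2 fold change 0.25, adjusted p = 0.553 by edgeR). For chondroitin and dermatan sulfate synthesis, 14 of 16 genes passed the filter, their median was -0.05, and 2 lower and 1 higher had an unadjusted p under 0.05. The 2 were the chain polymerases Chsy1 (192 ± 1.86 against 152 ± 33.2 CPM, log2 fold change -0.34) and Chsy3 (11.5 ± 0.729 against 7.26 ± 3.54 CPM, log2 fold change -0.66). The third was Chst15, which adds a second sulfate to chondroitin sulfate, at 21.8 ± 2.33 and 26.2 ± 2.32 CPM (log2 fold change 0.26). For Chsy1 the TBHP libraries were at 194, 191.5 and 190.3 CPM and the TBHP+FGF21 libraries at 140.9, 189 and 125.5 CPM, so that F2 sat beside the TBHP group. Without that library Chsy1 was at -0.52 (adjusted p = 0.00512 by edgeR) and Chsy3 at -1.11 (adjusted p = 0.00115 by edgeR). In that fit 7.5% of all genes had an adjusted p under 0.05. With each library left out in turn, the values nearest to 0 were -0.21 for Chsy1 and -0.39 for Chsy3. Without T1, F1 or F3, no gene of this list had an unadjusted p under 0.05 by edgeR. In keratan sulfate synthesis 9 of 11 genes could be tested, 6 higher and 3 lower with a median of 0.05 and none under 0.05, and the smallest p was that of B4galt4, a galactosyltransferase, at 3.64 ± 0.391 and 4.61 ± 0.841 CPM.

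Of 13 proteases known to trim or cleave the core proteins, 10 passed the filter. Their median log2 fold change was 0.09, and 3 higher and 1 lower had an unadjusted p under 0.05. The gelatinase Mmp2 was at 295 ± 25.9 CPM with TBHP alone and 389 ± 105 CPM with FGF21 added (SD, n = 3), a log2 fold change of 0.40. Stromelysin Mmp3 was at 20.5 ± 2.35 and 41.0 ± 20.4 CPM (1.00 on the log2 scale), and collagenase Mmp13 at 15.8 ± 0.620 and 23.4 ± 8.64 CPM (0.56). F2 was within the TBHP range for Mmp3 and just below it for Mmp2 and Mmp13, and the log2 fold changes without it were 0.62 for Mmp2, 1.32 for Mmp3 and 0.83 for Mmp13 (adjusted p = 0.00167, 6.06e-05 and 0.00119 by edgeR). In that fit 7.5% of all genes had an adjusted p under 0.05. With each library left out in turn, the lowest values were 0.29 for Mmp2, 0.59 for Mmp3 and 0.29 for Mmp13. The aggrecanase Adamts4 was lower in all 3 TBHP+FGF21 libraries, at 6.16, 6.80 and 7.28 CPM against 7.93, 8.66 and 10.0 CPM (log2 fold change -0.40, adjusted p = 0.553 by edgeR). Groups did not overlap in this direction for 5.0% of all genes tested.

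Among 21 receptors and ligands that bind the core proteins, 18 could be tested, 9 higher and 9 lower with a median of 0.01. Tlr4, a receptor for free biglycan, was at 10.2, 10.2 and 11.4 CPM with TBHP alone and at 8.34, 8.86 and 8.15 CPM with FGF21 added, without overlap (log2 fold change -0.33, adjusted p = 0.553 by edgeR). Tgfbr2, a receptor of the growth factors that decorin and biglycan bind, was at 90.3 ± 8.31 and 108.5 ± 10.9 CPM (log2 fold change 0.26). All 12 collagens listed as carriers were tested, 5 higher and 7 lower with a median of -0.03. Among them, Col1a2 had 7 to 17 counts per library, whereas Col1a1, the other type I collagen gene, was at 27868 to 42463 CPM. Whether counts near 0 in these data, for Col1a2 or for other genes, reflect low expression was not tested. Col14a1, a fibril-associated collagen, was at 24.9 ± 1.68 and 36.0 ± 10.7 CPM (0.53), and Col11a1, a core fibril collagen, was at 1651 ± 26.4 and 1283 ± 355 CPM (-0.36), both with an unadjusted p under 0.05. Without F2 they were at 0.75 and -0.55 (adjusted p = 0.00115 and 0.0196 by edgeR), in a fit where 7.5% of all genes had an adjusted p under 0.05. With each library left out in turn, the values nearest to 0 were 0.33 for Col14a1 and -0.16 for Col11a1.

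**Figure D5:**
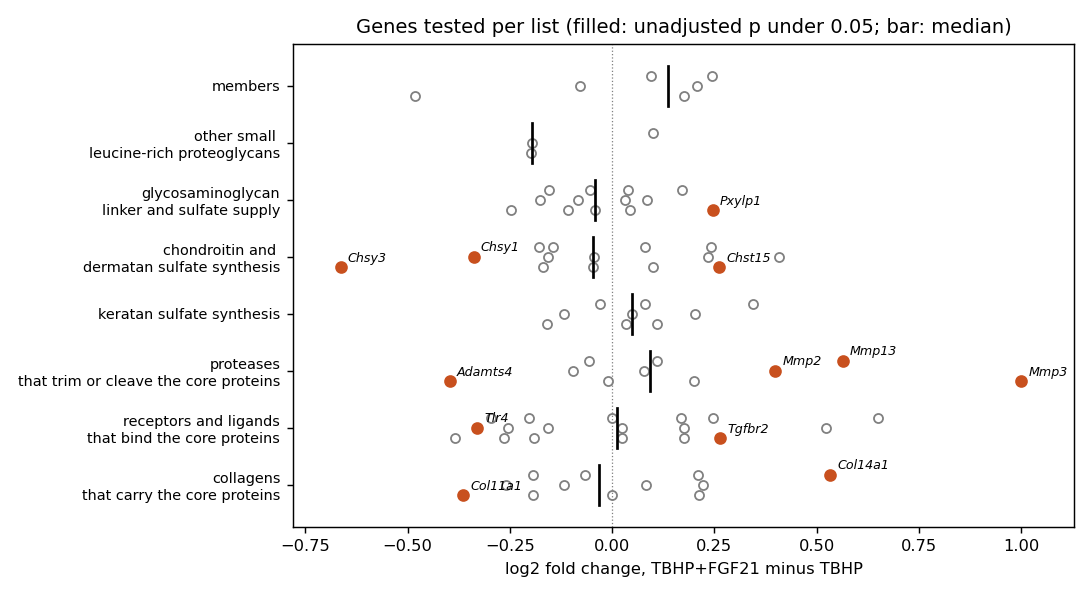
Log2 fold change of TBHP+FGF21 minus TBHP (horizontal axis) for the genes tested in each list, 1 circle per gene, with vertical offsets for legibility, filled where edgeR's unadjusted p was under 0.05 and with a bar at the median. The medians lie between -0.20 and 0.14, and Mmp3 has the largest value at 1.00.

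Markers of other cell types were summed in each library. Macrophage and leukocyte markers summed to 32.2 to 38.2 CPM with TBHP alone and 26.9 to 33.0 CPM with FGF21 added, nearly all from Cd14, with Ptprc, Adgre1, Mrc1, Tyrobp and S100a8 at 0. Endothelial markers summed to 8.10 to 10.8 and 7.11 to 10.7 CPM, mostly Cldn5, with Cdh5, Kdr and Emcn at 0. Osteoblast markers summed to 58.4 to 65.1 and 60.7 to 67.3 CPM, led by Runx2, and 2 of 4 tested, Alpl and Dmp1, had an unadjusted p under 0.05 with higher values in TBHP+FGF21. Runx2 and Ibsp, also tested, had log2 fold changes of 0.02 and 0.04. Sp7, Bglap and Phex were at most 0.287 CPM in any library and were not tested. Dmp1 had 14 to 61 counts per library, and its log2 fold change of 0.89 was as low as 0.32 with a library left out. Chondrocyte markers summed to 2611 to 3048 and 2967 to 4456 CPM, nearly all Acan, with Matn1 and Cytl1 at 0. In the annulus fibrosus and tendon list, which held 39609 to 43848 and 29405 to 41499 CPM and was led by Col1a1, Tnmd was at 0, Pdgfra and Sfrp2 had higher and Scx lower values at an unadjusted p under 0.05. Smooth muscle and pericyte markers summed to 2637 to 2900 and 2219 to 2842 CPM, mostly Acta2 and Cspg4. Acta2 was at 910.2, 1378 and 687 CPM with FGF21 added against 1322 to 1439 CPM with TBHP alone, and Cspg4 between 1111 and 1279 CPM in all libraries. In the nucleus pulposus list (3362 to 3795 and 3725 to 5404 CPM), 12 of 21 genes were tested, 5 with higher and 7 with lower values and a median log2 fold change of -0.03. Acan, Pax1 and Sox9 had higher values at an unadjusted p under 0.05, and none of the 7 had a lower value at that level, Krt8 being nearest (log2 fold change -0.43, unadjusted p = 0.0516 by edgeR). Without F2, Acan, Pax1, Sox9, Scx, Pdgfra, Sfrp2, Acta2 and Alpl had an adjusted p under 0.05 by edgeR, as did 7.5% of all genes. F3 was highest for Acan, Pax1 and Sox9 and lowest for Scx, Acta2 and Dcn. It was also highest for 23.0% and lowest for 23.9% of all genes tested, the largest shares of any library. The part of the cells' makeup in the members' levels was not tested.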

How the data were processed

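The 6 RNA-seq libraries of rat NPCs were grouped by their titles into TBHP (3) and TBHP+FGF21 (3). The authors deposited raw read counts per library, both regardless of strand and for either strand separately, and a combined table of counts per gene symbol, which is treated as estimated counts because 22 rows hold values that are not whole (rounded up here). Per the labels, STAR and featureCounts are among the submitters' tools, with no version, and the build and annotation are not given in the sources used here. The labels name a directional kit, yet the strand columns had nearly equal totals, so the unstranded counts were used. Reads that were unmapped, multimapping, ambiguous or outside genes (each at most 10.4% of a library) stayed out. Identifiers were paired with symbols by identical counts in all 6 libraries (13204 pairs).

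edgeR 4.0.16 in R 4.3.3 was used with TMM, filterByExpr (minimum count 10, minimum total 15), glmQLFit and glmQLFTest. The standard error was taken as |log2 fold change|/√F. DESeq2 1.42.0, limma-voom (limma 3.58.1), other filters, scalings and count columns, the replicate block and leaving out each library were alternatives. Scripts were tested on simulated data. The 1 gene with an adjusted p under 0.05, Sirt1, has counts in the combined table that match no row of the per-library files. The members and lists were chosen with earlier results of these data known. Genes named beyond the members were those of each list with an unadjusted p under 0.05, or else the smallest p, the top and absent markers, and the 2 nearest profiles per member, of which 1 for Lum is not reported here. Optc, Podnl1, the family genes with few counts, Acsf2, Col1a2, Tlr2, Ibsp, Sp7, Bglap, Phex, Foxf1, Col2a1, Krt8 and the other nucleus pulposus markers named beyond this rule were added after their values were seen.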

Additional observations from a re-analysis of the deposited data

How the results depend on the processing

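Of 96 recomputed log2 fold changes of the 6 tested members, 92 kept their direction and side of the adjusted threshold, 3 changed sign and 1 passed the threshold. Leaving out F3 gave 0.0677 for Dcn, and leaving out F1 gave -0.0125 for Fmod and -0.106 for Lum. With each library left out in turn, log2 fold changes ranged from -0.27 to 0.07 for Dcn, 0.08 to 0.28 for Bgn, -0.01 to 0.36 for Fmod, -0.11 to 0.33 for Lum, 0.18 to 0.36 for Prelp and -0.67 to -0.20 for Chad, and the summed members from 0.07 to 0.27. Members with an unadjusted p under 0.05 numbered 0, but 1 (Prelp) with library totals only, by DESeq2's Wald test, with at least 1 CPM in 3 libraries, and in the first strand column (chosen after seeing the data), 2 (Prelp and Ogn) without the filter, and 0 to 4 with a library left out (1, Dcn, without F1, 1, Prelp, without T3 and 4 without F2). Members past the study's threshold numbered 1 without the filter (Ogn, with 19 counts over all libraries) and 0 to 0 with a library left out. The share of all genes past that threshold was 0.534% with the filter and was not computed without it. Members with an adjusted p under 0.05 numbered 0 to 1 with a library left out. Members whose groups did not overlap numbered 2 (Chad and the untested Ogn, beside 9.9% of all genes tested), but 0 in the second strand column (10.7%) and 2 to 5 with a library left out, when 14.7% to 39.8% of all genes tested did not overlap. The count of 5 came without F2, which gave the 39.8%. Genes with an unadjusted p under 0.05 ranged, with a library left out, from 0 to 1 in the other family genes, 0 to 2 for the linker, 0 to 6 for chondroitin sulfate, 0 to 1 for keratan sulfate, 2 to 5 for proteases, 1 to 11 for receptors and ligands and 0 to 8 for collagens. Each highest count of these lists came without F2, when 23.6% of all genes had an unadjusted p under 0.05. That share was 8.92% with all libraries and 4.15% without F1. The cause was not tested.

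Same-numbered libraries had correlations of their deviations from the group means of -0.14, 0.27 and 0.18, and not every library correlated best with its own number, so the numbers were not taken as pairs. With the replicate number as a block, 1 member (Prelp, log2 fold change 0.24) had an unadjusted p under 0.05, and 1599 genes (14.0%) did in place of 1019. The low counts of Ogn, Epyc, Aspn and Chad limit what can be seen of them at this depth.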
